A study of Mus musculus with 2 samples.

Results

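The 10 genes described here are 4 receptors that mark mitochondria or other cargo for autophagy (Bnip3l, Bnip3, Fundc1 and Sqstm1), 5 members of the ATG8 family (Gabarap, Gabarapl1, Gabarapl2, Map1lc3a and Map1lc3b) and the kinase Ulk1. They were chosen by name, with earlier results of these data known. All 10 symbols were found among the 43346 Ensembl gene rows of the tables. RNA came from G1E-ER4, an immortalized erythroid line of strain C57BL/6J, from a male, without its own Gata1, into which was placed a GATA1 protein fused to an estrogen receptor domain. Both cultures had received 17beta-estradiol at 10 nM for 24 h, which activates that protein, and were labelled biological replicates 1 and 2. Total RNA depleted of ribosomal RNA (100 ng) was made into ScriptSeq libraries with a size range of 200 to 1000. The series as given here holds 2 libraries of 1 group and no untreated library, so levels, ratios within a library, transcript shares and differences between replicates were measured, and no effect of estradiol was tested.

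In autophagy a double membrane grows around cargo and delivers it to the lysosome. ULK1 starts the process, ATG8 proteins are attached to lipid in the growing membrane, and receptors such as BNIP3L (also called NIX), BNIP3, FUNDC1 and SQSTM1 (p62) bind ATG8 proteins and hold the cargo. Maturing erythroid cells clear their mitochondria, and BNIP3L is known for its part in that step.

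Replicate 1 was sequenced to 62080996 expected counts and replicate 2 to 41051158, of which the 10 genes took 0.191% and 0.177%. Levels are in TPM, a length-scaled abundance with the same sum in each library, and errors are SD over 2 libraries. In the erythroid marker list, 11 of 11 measured genes were at 1 TPM or more in both libraries. Gata1 stood at 60.1 and 73.2 TPM, where reads of the introduced form are not told apart from others, and Hbb-bs, a beta globin gene, led the list with 985 and 1629 TPM. None of 12 myeloid, 12 lymphoid and 9 stromal markers reached 1 TPM in either library. S100a8 led the myeloid list with 0.03 and 0.60 TPM, Nkg7 the lymphoid list with 0 and 0.05 TPM, and Pecam1 the stromal list with 0.03 and 0.04 TPM. The megakaryocyte list, with 3 of 8 genes at 1 TPM or more in each library, was led by Tubb1 at 6.77 and 9.64 TPM. No p is given, since flipping signs over 2 libraries cannot yield an exact two-sided value below 0.5.

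ATG8 proteins are made with a short tail that ATG4 proteases cut off after a glycine, which is then joined to lipid. The end of each coding sequence is shown because the transcripts of these genes differed in whether they have that codon in their reading frame. Capitals mark the last glycine codon of the coding strand, the last 3 bases are the stop codon, and all sequences are from GENCODE M21 transcripts on GRCm38.

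Gabarap, chr11:69994492-69994524, plus strand: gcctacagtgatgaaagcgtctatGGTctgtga

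Gabarapl1, chr6:129541135-129541167, plus strand: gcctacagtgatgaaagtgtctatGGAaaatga

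Gabarapl2, chr8:111952373-111952405, plus strand: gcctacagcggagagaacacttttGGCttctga

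Map1lc3a, chr2:155277605-155277637, plus strand: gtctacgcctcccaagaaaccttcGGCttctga

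Map1lc3b, chr8:121596726-121596770, plus strand: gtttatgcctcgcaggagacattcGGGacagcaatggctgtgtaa

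The glycine codon was number 116 in the 3 GABARAP genes and number 120 in both LC3 genes. Over the whole coding sequence, Gabarap and Gabarapl1 had 74.6% identical aligned bases, and Map1lc3a and Map1lc3b 76.6%. Gabarapl2 had 63.2% with Gabarap and 63.5% with Gabarapl1, little above the closest pair across the GABARAP and LC3 subfamilies. Pairs taken from across these subfamilies had between 53.0% (Gabarapl1 with Map1lc3a) and 62.7% (Gabarap with Map1lc3b).

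Among the receptors, Sqstm1 and Bnip3l were the most abundant and Fundc1 the least. Sqstm1, which binds ubiquitin on cargo (chromosome 11, 50199366 to 50210827, minus strand), was at 110.1 TPM in replicate 1 and 100.8 TPM in replicate 2, or 105 ± 6.56 TPM. Bnip3l, anchored in the outer mitochondrial membrane (chromosome 14, 66985239 to 67008877, minus strand), was at 69.3 and 48.4 TPM, or 58.9 ± 14.8 TPM. Its 2 values lay further apart, relative to their mean, than those of the other 9 genes, with a coefficient of variation of 25.1%. Bnip3, a close relative of Bnip3l that is induced by low oxygen in many cells (chromosome 7, 138890836 to 138909519, minus strand), was at 8.27 and 6.77 TPM. Fundc1, another receptor of the outer mitochondrial membrane (chromosome X, 17556564 to 17572325, minus strand), was at 3.70 and 2.80 TPM.

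Bnip3l therefore stood above its relative in each library. The TPM ratio of Bnip3l to Bnip3 was 8.38 in replicate 1 and 7.15 in replicate 2, a mean log2 ratio of 2.95 ± 0.16. Its ratio to Fundc1 was 18.7 and 17.3, or 4.17 ± 0.08 on the log2 scale. Bnip3 was 2.24 and 2.42 times Fundc1. Sqstm1 exceeded Bnip3l by a mean factor of 1.82, with a log2 ratio of Bnip3l to Sqstm1 of -0.86 ± 0.28. On protein-coding transcripts only, that log2 ratio was -0.90 ± 0.06, and on principal transcripts only it was -0.08 ± 0.17, which does not exceed its SD.

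Gabarap was the most abundant ATG8 gene and the most abundant of all 10. Gabarap (chromosome 11, 69991143 to 69994951, plus strand) was at 246 TPM in replicate 1 and 234 TPM in replicate 2, higher than 99.1% or more of the 9582 protein-coding genes averaging 0.1 TPM or more. Map1lc3b, the source of the widely used autophagosome marker LC3B (chromosome 8, 121590361 to 121598760, plus strand), was at 75.3 and 66.1 TPM. Gabarapl1 (chromosome 6, 129533160 to 129542346, plus strand) was at 24.2 and 23.0 TPM. Gabarapl2, also known as GATE-16 (chromosome 8, 111940703 to 111953612, plus strand), was at 24.6 and 19.2 TPM. Map1lc3a (chromosome 2, 155276297 to 155278073, plus strand) was at 7.58 and 5.72 TPM. Gabarapl1 and Gabarapl2 changed places between the libraries, with a log2 ratio of Gabarapl2 to Gabarapl1 of 0.03 in replicate 1 and -0.26 in replicate 2. They were the only neighbours in the order of the 10 gene levels whose difference did not exceed its SD.

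Of the TPM summed over the 5 ATG8 genes, 377.7 in replicate 1 and 347.9 in replicate 2, Gabarap held 66.2 ± 1.46%. Map1lc3b held 19.5 ± 0.66%, Gabarapl1 6.51 ± 0.16%, Gabarapl2 6.02 ± 0.70% and Map1lc3a 1.83 ± 0.26%. The GABARAP subfamily together held 78.1% and 79.4%, and the LC3 subfamily 21.9% and 20.7%. Gabarap was 3.27 and 3.54 times Map1lc3b, and Map1lc3b was 9.93 and 11.6 times Map1lc3a.

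Ulk1, whose complex starts autophagosome formation (chromosome 5, 110784488 to 110810097, minus strand), was the lowest of the 10 genes, at 1.08 TPM in replicate 1 and 0.91 TPM in replicate 2. Its relative Ulk2 was at 2.19 and 1.90 TPM, so that the ratio of Ulk1 to Ulk2 was 0.49 and 0.48, or -1.04 ± 0.03 on the log2 scale. The Ulk1 transcript is 5213 bases long, and these levels rested on 1109 and 644 expected counts. The remaining 9 genes reached 1 TPM in both libraries.

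**Figure D1:**
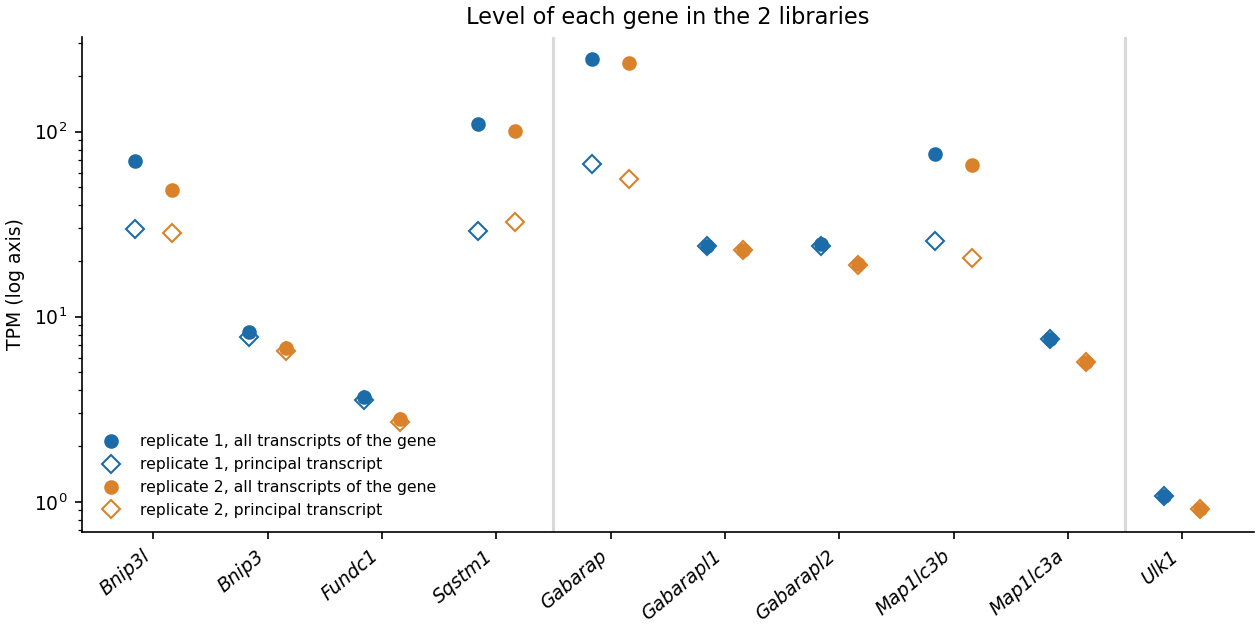
Level in TPM (log axis) of the 10 genes in replicate 1 and replicate 2. Filled circles stand for all transcripts of a gene and open diamonds for its principal transcript, and vertical lines separate receptors, ATG8 genes and Ulk1. Circles and diamonds lie far apart for Bnip3l, Sqstm1, Gabarap and Map1lc3b only.

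A pair of genes was called different where the log2 TPM ratio had the same sign in both libraries and a mean above its SD. Of 16 pairs 15 met this rule, but so did 92.1% of all pairs of the 7966 protein-coding genes averaging 1 TPM or more, so the count is near the background and says little about these genes in particular. Gabarapl2 to Gabarapl1 was the pair that did not meet it.

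Gene levels hid large differences in which annotated transcripts carried the TPM. The deposited tables list 41 transcripts for the 10 genes, and APPRIS, a system that picks the main coding form of a gene, marks a principal transcript for each. In Gabarapl1 and Ulk1, with 1 transcript each, in Map1lc3a (99.6% and 100.0%), Gabarapl2 (98.1% and 99.3%), Fundc1 (95.4% and 96.1%) and Bnip3 (93.6% and 96.6%) that form held nearly all TPM. In Sqstm1 it held 26.4% and 32.3%, in Gabarap 27.3% and 23.7%, and in Map1lc3b 34.2% and 31.3%. Those 3 of the 9 genes averaging 1 TPM or more were under 50% in both libraries, against 25.3% of 7802 expressed protein-coding genes with such a form. Bnip3l was under 50% only in replicate 1, at 43.0% against 58.3%.

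In Gabarap the leading transcript was Gabarap-202, annotated as coding with support level 3, where 1 is the best supported. It was at 175.1 TPM in replicate 1 and 174.8 TPM in replicate 2, or 71.2% and 74.8% of the gene. The principal form Gabarap-201 was at 67.2 and 55.3 TPM. Gabarap-202 starts 496 bases downstream of Gabarap-201 and lacks 94 bases of exon 3, which is coding in Gabarap-201. Gabarap-201 also ends with 11 bases that Gabarap-202 lacks, so the 94 bases are not all that tells the 2 forms apart. Exon 3 of Gabarap-201 is shown whole, with the 94 bases in capitals, because the form that held most Gabarap TPM lacks them.

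Gabarap-201, exon 3, chr11:69992582-69992700, plus strand: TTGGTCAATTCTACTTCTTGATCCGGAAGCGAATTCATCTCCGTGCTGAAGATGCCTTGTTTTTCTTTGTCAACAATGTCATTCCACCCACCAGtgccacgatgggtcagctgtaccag

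The annotated coding sequence of Gabarap-202 has 106 codons against 117 in Gabarap-201, and the glycine codon printed above is not in its reading frame. Across the ATG8 genes, 7 of 16 transcripts have that codon in frame. They held 51.8% of the summed ATG8 TPM in replicate 1 and 47.9% in replicate 2 (49.9 ± 2.72%). For Gabarap alone the share was 25.5 ± 2.57%, whereas for Map1lc3b it was 96.3 ± 0.08%. For the other 3 genes it was at least 98.1% in each library. The Map1lc3b share covers 3 forms with coding sequences of unlike length. Map1lc3b-201 has 125 codons, Map1lc3b-205 has 160 and Map1lc3b-203 has 66. The principal form Map1lc3b-201 alone held 34.2% of Map1lc3b TPM in replicate 1 and 31.3% in replicate 2. How the reads of Gabarap fell on the 94 bases, on the 496 at the start or on the 11 at the end was not tested. The deposited data hold no positions of reads, so which of these bases set the shares of the 2 forms was not tested either.

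In Map1lc3b the leading transcript was Map1lc3b-205, coding with support level 2, at 41.7 TPM in replicate 1 and 27.8 TPM in replicate 2. Map1lc3b-201, the principal form, was at 25.7 and 20.7 TPM. Map1lc3b-205 has a longer exon 2 that runs 105 bases into the following intron of Map1lc3b-201, and its coding sequence has 160 codons against 125, with the glycine codon in frame. The exon is shown with the added bases in capitals.

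Map1lc3b-205, exon 2, chr8:121593490-121593650, plus strand: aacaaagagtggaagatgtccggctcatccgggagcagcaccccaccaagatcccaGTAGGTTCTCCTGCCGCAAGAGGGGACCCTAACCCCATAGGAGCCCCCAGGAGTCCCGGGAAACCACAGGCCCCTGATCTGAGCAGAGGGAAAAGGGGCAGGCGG

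A further form, Map1lc3b-203, which starts with an exon of its own, 212 bases long, was the transcript of the 10 genes whose share differed most between the libraries. It was at 5.12 TPM on 601 counts in replicate 1 and at 15.2 TPM on 1200 counts in replicate 2, or 6.80% and 23.0% of the gene. Map1lc3b-205 held 55.4% in replicate 1 and 42.0% in replicate 2, the opposite order, and the shares of Map1lc3b-201 lay closest together of these 3 forms.

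In Sqstm1 and Bnip3l the TPM outside the principal form lay mostly in transcripts with no coding sequence. Sqstm1-203, annotated as a retained intron, was at 54.6 TPM in replicate 1 and 39.9 TPM in replicate 2, and the principal coding form Sqstm1-202 at 29.1 and 32.5 TPM. Sqstm1-204, a coding model of 3 exons, was at 22.6 and 20.1 TPM. Another retained-intron model, Sqstm1-206, stood at 0.84 TPM on 43.8 counts in replicate 1 and 5.99 TPM on 203 counts in replicate 2. Sqstm1-203 ends with 87 bases of intron that Sqstm1-202 lacks, in capitals below after 30 bases of exon.

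Sqstm1-203, end, chr11:50202312-50202428, minus strand: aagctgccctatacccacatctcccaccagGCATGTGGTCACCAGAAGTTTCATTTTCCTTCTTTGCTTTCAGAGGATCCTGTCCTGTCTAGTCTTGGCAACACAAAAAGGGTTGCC

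Bnip3l-201, the principal coding form, was at 29.8 TPM in replicate 1 and 28.2 TPM in replicate 2. Bnip3l-206 was at 20.4 and 11.1 TPM and Bnip3l-205 at 17.8 and 8.23 TPM. Both are annotated as processed transcripts without a coding sequence, and both begin inside an intron of Bnip3l-201. The start of Bnip3l-205 is shown with the bases that Bnip3l-201 lacks in capitals, followed by 30 bases of a shared exon across a splice junction.

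Bnip3l-205, start, chr14:66989480-66989841, minus strand: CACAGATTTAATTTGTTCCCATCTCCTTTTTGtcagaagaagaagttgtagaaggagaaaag

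Retained-intron and processed transcripts together held 56.9% and 41.7% of Bnip3l TPM and 50.9% and 46.2% of Sqstm1 TPM. Over all 7966 expressed protein-coding genes the median share was 2.37%, and 16.2% of the genes were at 25% or more in both libraries. Of the 9 genes in that set, Bnip3l and Sqstm1 were at or above 25%, and the other 7 held at most 6.41% in either library.

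Shares looked different when counts were used, because a short transcript needs few counts for a high TPM. Bnip3l-206 has an effective length of 244 bases in replicate 1 against 3035 for Bnip3l-201, and took 4.66% and 2.72% of the Bnip3l counts. The principal form took 85.0% and 92.0% of the Bnip3l counts, 54.9% and 63.0% of the Sqstm1 counts and 62.6% and 60.0% of the Map1lc3b counts. In Gabarap it took 44.2% and 39.8%, below Gabarap-202 with 54.9% and 58.9%. Gabarap was thus the member in which another form than the principal one led in counts as well as in TPM.

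**Figure D2:**
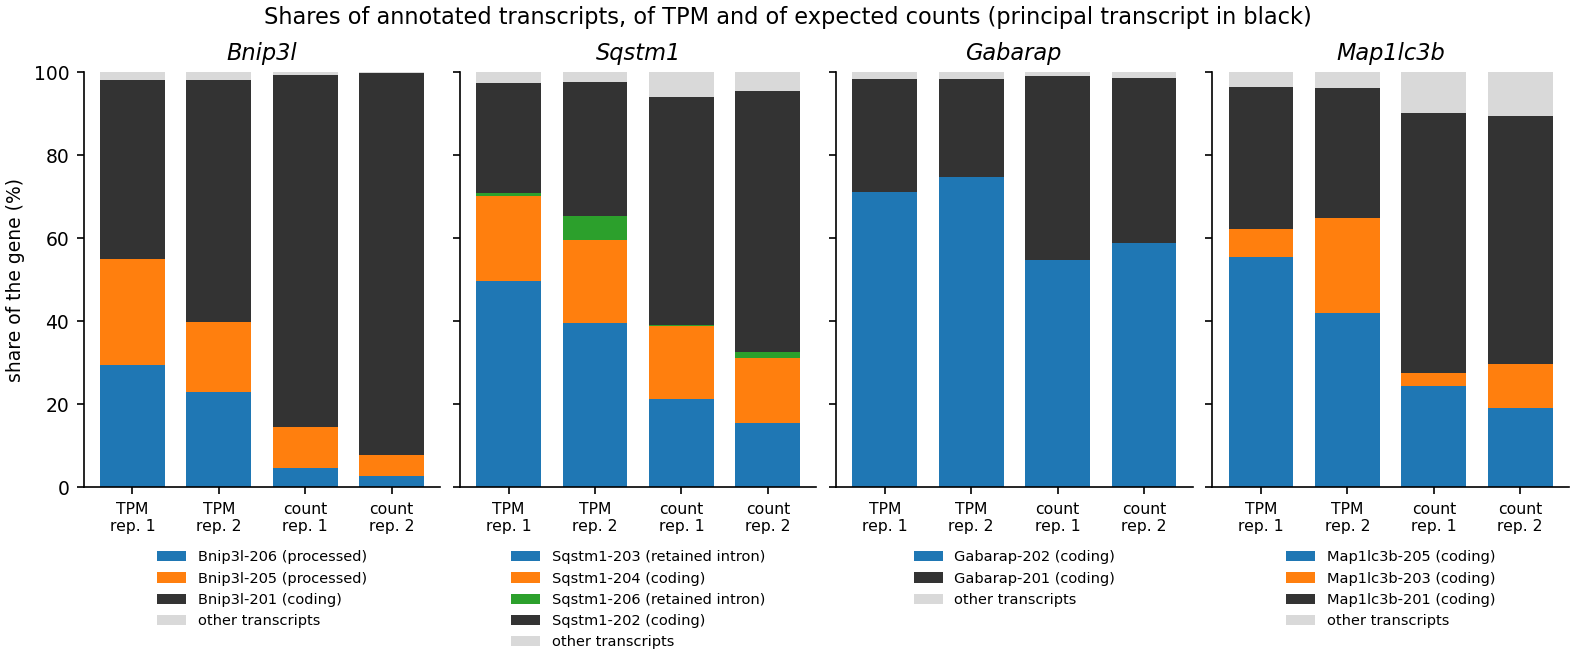
Share in percent of each annotated transcript within Bnip3l, Sqstm1, Gabarap and Map1lc3b, as TPM (left pair of bars) and in expected counts (right pair) in replicates 1 and 2. Black is the principal transcript and grey the sum of minor ones. The black part is larger in counts than in TPM in each gene, as for Bnip3l at 43.0% of TPM and 85.0% of counts in replicate 1.

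Counting only principal transcripts brought the 10 levels closer to each other, a comparison chosen after the data were seen. Gabarap remained highest at 61.2 ± 8.37 TPM. Sqstm1 at 30.8 ± 2.44 TPM and Bnip3l at 29.0 ± 1.12 TPM no longer differed beyond their spread, and neither did Gabarapl1 at 23.6 ± 0.81 TPM and Map1lc3b at 23.2 ± 3.56 TPM. The ratio of Bnip3l to Bnip3 was then 3.85 and 4.32, with a mean of 4.08, against 7.74 for gene TPM. Gabarap to Gabarapl1 had a mean ratio of 2.58 against 10.2, and Map1lc3b to Map1lc3a 3.51 against 10.7. Gabarap then held 44.9 ± 0.34% of the ATG8 pool, while the GABARAP subfamily as a whole held 78.2 ± 0.74%, close to its 78.7 ± 0.91% of gene TPM.

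**Figure D3:**
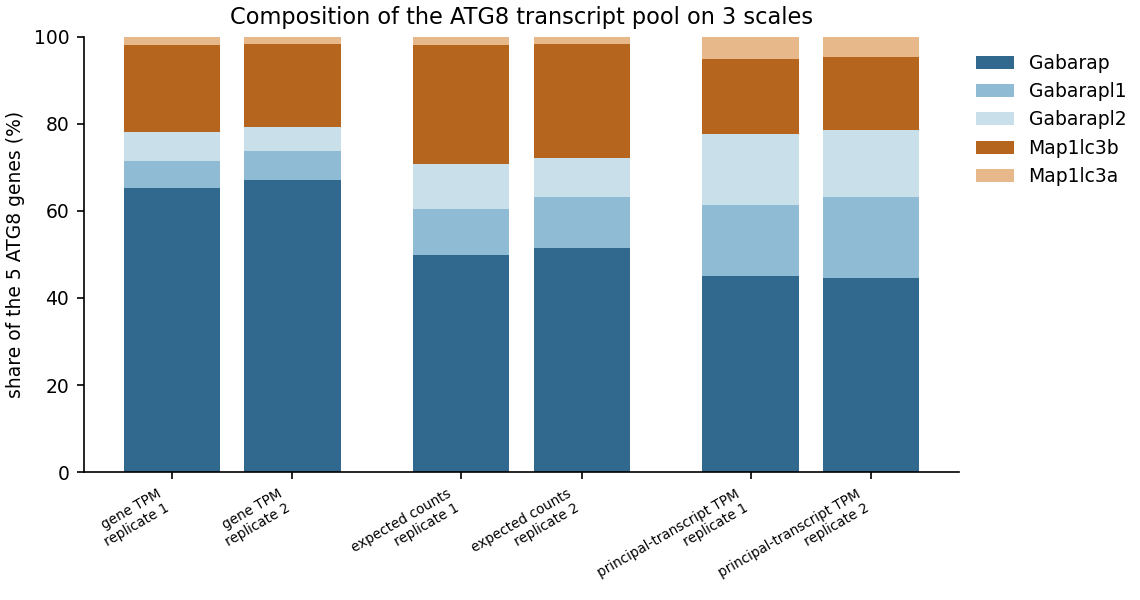
Share in percent of the 5 ATG8 genes in their summed abundance, in replicates 1 and 2, from gene TPM, from expected counts not divided by length, and from TPM of principal transcripts. Blue shades are the GABARAP subfamily and brown shades the LC3 subfamily. The share of Gabarap is lower on the principal-transcript scale (44.9%) than in gene TPM (66.2%), and that of Gabarapl1 and Gabarapl2 is higher.

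In gene TPM, all 10 genes differed less than 1.5-fold between the replicates, and in one direction. After centring on the expressed protein-coding median, a log2 ratio of replicate 2 to replicate 1 of -0.03, none of the 9 genes averaging 1 TPM or more was 2-fold apart, against 1.82% of all expressed genes, and none was 1.5-fold apart, against 6.67%. With 9 genes, such counts say little. All 9 were lower in replicate 2, where centring puts 50.0% of expressed genes. Of the 72 further autophagy genes averaging 1 TPM or more, described below, 48 were also lower in replicate 2. The deposited credible bounds of the libraries did not overlap for any of the 9, as for 49.3% of expressed genes. The centred log2 ratio ran from -0.49 for Bnip3l to -0.04 for Gabarap and Gabarapl1, with Map1lc3a at -0.37, Fundc1 at -0.37 and Gabarapl2 at -0.32. On the same scale Ulk1 was at -0.21. The quartiles of expressed genes were -0.15 and 0.16. Of the 10 genes only Sqstm1, Gabarap and Gabarapl1 lay between them, and the others lay below. Erythroid markers went the other way in 10 of 11 genes, with a median of 0.12 and 0.76 for Hbb-bs, and their summed TPM was 2369 in replicate 1 and 3257 in replicate 2. Most of the difference in that sum lay in Hbb-bs (985 and 1629 TPM) and Hba-a2 (930 and 1106 TPM). Epor, at -0.23, was the marker that did not go the other way. In bulk RNA, fewer cells of a stage and less RNA per cell cannot be told apart, and the part of the erythroid markers in the result was not tested.

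The Bnip3l difference was the one that depended most on the scale. Gene TPM was 20.9 higher in replicate 1, and Bnip3l-205 and Bnip3l-206 together accounted for 18.9 of these TPM, against 1.58 for Bnip3l-201. The effective length of the gene, an average over its transcripts weighted by abundance, was 1537 bases in replicate 1 and 1913 bases in replicate 2. Expected counts made up 352 and 321 CPM, and scaled with TMM factors, which correct for library composition, gave a log2 ratio of -0.16 in place of -0.49. From principal transcripts the centred ratio of Bnip3l was -0.06. For Fundc1, Gabarapl2 and Map1lc3a the 3 scales lay between -0.39 and -0.32. Sqstm1 was at -0.10 in TPM, at -0.01 in scaled counts and at 0.18 on its principal form, so its direction was not the same on all scales.

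**Figure D4:**
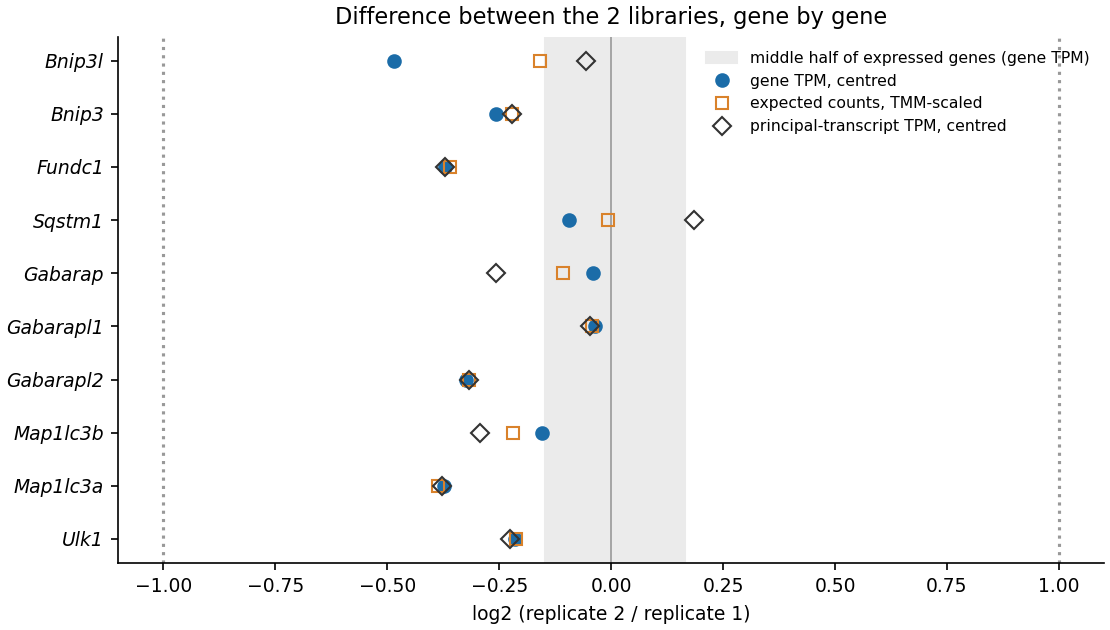
Log2 ratio of replicate 2 to replicate 1 for each of the 10 genes from centred gene TPM, from expected counts scaled with TMM factors, and from centred TPM of principal transcripts. The grey band holds the middle part of expressed genes, from -0.15 to 0.16 (quartiles), and dotted lines mark 2-fold. All points lie between -0.49 and 0.18, and the 3 scales part most for Bnip3l.

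Sequence shared with other genes touched some members. Of the 50-base stretches in the transcripts of Bnip3, 47.2% also occur in transcripts of 6 other genes, and of those in Bnip3l 20.8%, all in the pseudogene Bnip3l-ps. Of the genes that share with Bnip3, Gm16439 had 14.2 and 5.07 counts and Gm14506 4 and 0, against 2488 and 1436 for Bnip3. The others, among them AC160336.1 with 766 shared stretches and Gm45507 with 359, had no value in the deposited data. How many reads came from them was therefore not measured. Bnip3l-ps had 106 and 59.1 counts, against 21858 and 13181 for Bnip3l. Sqstm1 overlaps Mrnip on the opposite strand, which had 387 and 301 counts, and 15.5% of its 50-base stretches occur there. Gabarapl1 overlaps 1700101I11Rik on the opposite strand, with 193 and 69.0 counts, and shares 23.1% of its stretches with it. Gabarapl2 shares 12.2% of its stretches with 4 other genes, Map1lc3b 6.0% with 388 and Ulk1 0.04% with 1. Fundc1, Gabarap and Map1lc3a share none. The strand setting of the counting was not stated in any source used. The deposited posterior SD of the count was at most 10.1 counts for any of the 10 genes, the value of Map1lc3b in replicate 1.

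The rest of the pathway was present over a wide range of levels. Of 82 further autophagy genes in 10 lists, 71 were at 1 TPM or more in both libraries and 10 were under 1 TPM in both. Their median was 6.30 TPM in replicate 1 and 6.29 TPM in replicate 2, near the 6.24 and 6.22 TPM of all expressed protein-coding genes. The 10 genes had medians of 24.4 and 21.1 TPM. Members and lists were chosen with earlier results of these data known, so this difference describes the lists and is not a test. Among the 10 lists, that of fusion and lysosome genes alone had medians above those of the 10 genes, at 48.9 and 42.3 TPM. None of the 72 averaging 1 TPM or more was 2-fold apart between replicates.

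In the initiation complex around Ulk1, 5 of 6 genes reached 1 TPM in both libraries. Rb1cc1, the scaffold FIP200, was at 31.7 and 28.1 TPM, Atg9a, a lipid scramblase, at 6.24 and 6.74 TPM and Atg101 at 5.34 and 5.74 TPM, while Atg9b was at 0.02 and 0.04 TPM. All 7 genes of the PI3K complex, which makes the lipid signal for membrane growth, did so, led by Becn1 at 37.9 and 37.7 TPM, Uvrag at 7.08 and 6.29 TPM and Pik3c3 at 5.57 and 5.86 TPM. All 8 genes for lipid transfer and WIPI proteins did so as well, led by Vmp1 at 66.7 and 56.9 TPM, Tmem41b at 19.4 and 18.8 TPM and Wipi2 at 11.5 and 11.7 TPM. These genes were thus led by 1 member each that stood well above the rest.

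The machinery that acts on ATG8 proteins was measured at levels from under 1 TPM to 43.1 TPM (Atg4b in replicate 1). Of 7 conjugation genes 6 reached 1 TPM in both libraries, with Atg12 at 15.9 and 14.0 TPM, Atg16l1 at 11.9 and 12.8 TPM and Atg3 at 9.62 and 7.49 TPM, and Atg16l2 at 0.54 and 0.55 TPM. Of the 4 proteases that expose the glycine, Atg4b was highest at 43.1 and 37.2 TPM, Atg4a was at 5.74 and 5.33 TPM, Atg4d at 4.75 and 4.87 TPM, and Atg4c had 1 count in replicate 1 and 0 in replicate 2.

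Other receptors ranged widely. Of 11 further cargo receptors 8 reached 1 TPM in both libraries, led by Tax1bp1 at 59.1 and 48.6 TPM, Nbr1 at 39.1 and 35.6 TPM and Optn at 37.9 and 34.3 TPM, while Calcoco2, Retreg1 and Wdfy3 had at most 8 counts in a library. Sqstm1 was 2.81 and 2.84 times Nbr1 and 2.90 and 2.94 times Optn in gene TPM. On principal transcripts the ratio of Sqstm1 to Optn was 0.83 and 1.03, so that order rests on the other Sqstm1 transcripts. The ratio of Sqstm1 to Nbr1 was then 29.1 and 37.0. The principal form of Sqstm1 lay below its gene TPM, so the larger ratio came from a still lower principal share in Nbr1. With counts left unscaled for length, Sqstm1 to Nbr1 had a log2 ratio of -0.51 ± 0.06, so its direction turned with the scale.

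Of 13 other mitophagy genes 12 reached 1 TPM in both libraries. Pink1, a kinase that marks damaged mitochondria, was at 8.07 and 8.06 TPM, and Bnip3l was 8.59 and 6.01 times Pink1. Fkbp8, another receptor on mitochondria, was at 38.5 and 39.1 TPM, Vdac1 at 26.5 and 32.8 TPM, Usp15 at 30.1 and 28.5 TPM and the receptor Bcl2l13 at 9.99 and 9.40 TPM. Bnip3l exceeded Fkbp8 by 1.80 and 1.24 times and Bcl2l13 by 6.94 and 5.15 times. With protein-coding transcripts only, the log2 ratio of Bnip3l to Fkbp8 was -0.05 ± 0.11, and on principal transcripts it was 0.28 ± 0.18, so the order of these genes was kept on the second scale and not on the first.

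Upstream and downstream, Prkab1, a subunit of the energy sensor AMPK, was at 110.4 and 100.3 TPM, Prkag1 at 30.8 and 30.7 TPM and Prkaa1 at 8.54 and 8.06 TPM, while Prkaa2 had 2 counts in each library, and 8 of 9 upstream kinase genes reached 1 TPM in both. Of 6 transcription factors 3 did so, with Zkscan3 at 14.2 and 12.7 TPM, Foxo3 at 14.1 and 13.9 TPM and Tfe3 at 10.2 and 7.52 TPM, and Mitf and Tfec had at most 2 counts. All 11 fusion and lysosome genes did so, led by Lamp1 at 179 and 163 TPM, Ctsd at 159 and 141 TPM and Vamp8 at 117 and 110.4 TPM.

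**Figure D5:**
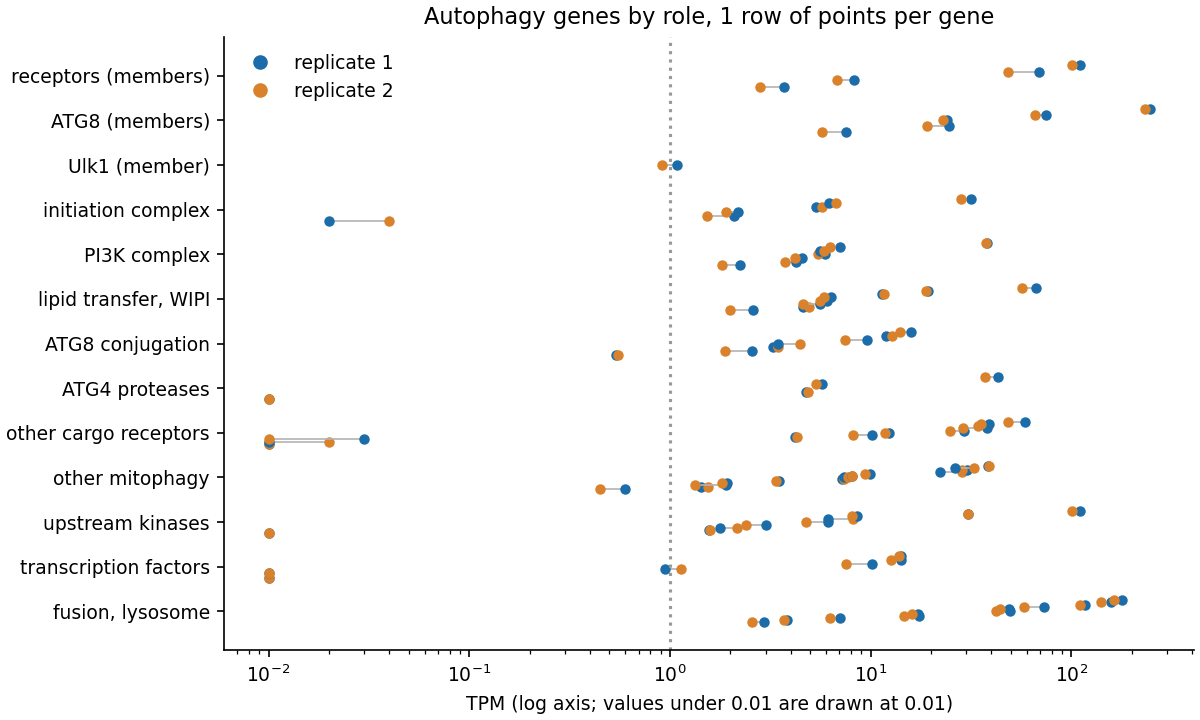
TPM (log axis) of the 10 genes and of 82 further autophagy genes by role, each gene drawn as its values in replicate 1 and replicate 2 joined by a line. The dotted line is 1 TPM. The 2 values of a gene lie close together except at the lowest levels, and 71 of the 82 further genes lie at or above 1 TPM in both libraries.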

How the data were processed

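Total RNA of 2 labelled biological replicates was measured; nothing in the labels says more of how the cultures were kept apart. The authors deposited gene and transcript tables with expected counts, not all whole numbers, per the file headers. Deposited TPM came with an effective length, credible bounds of unstated level and a posterior mean. The deposited transcript tables also gave the percent of its gene's TPM that a transcript held. Assembly mm10 and annotation GENCODE M4 are named in the deposited text lists; the program, aligner and strand setting are not given in the sources used here.

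Gene symbols, transcript types and APPRIS tags came from GENCODE M21 on the same assembly, matched by identifier without version (42462 of 43346 rows); 40 of 41 transcripts of the 10 genes kept their length. Members and lists were chosen with earlier results of these data known. The genes named are the 10, every gene of the 16 pairs, the 3 highest of each pathway list and up to 3 under 1 TPM, and the highest of each marker list; Gata1 was named after its value was seen. A few items that these rules take are not reported here. Expressed means a mean of at least 1 TPM. Scaling used edgeR 4.0.16 TMM factors or DESeq2 1.42.0 size factors on expected counts rounded to whole numbers. Python 3.11 and Biopython 1.88 did the rest, and the count and pair steps were tested on simulated data. No molecular identifiers are described, so reads need not be separate molecules. Depth was 62080996 and 41051158 expected counts.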

Additional observations from a re-analysis of the deposited data

How the results depend on the processing

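With 2 libraries of 1 group, error rests on 2 values, and short transcript models carry high TPM on few counts. No paired analysis was possible because there is 1 group. Posterior mean TPM, TPM recomputed from counts and effective lengths, and a pseudocount of 1 TPM each left all 16 pairs on their side of the rule. The number of pairs called was 15 in the main setting, under these and from expected counts, 14 on protein-coding transcripts only and 13 on principal transcripts only, both chosen after seeing the data; it has no value with 1 library. The log2 ratio of Bnip3l to Sqstm1 was 0.057 from expected counts not divided by length, and that of Sqstm1 to Nbr1 was -0.51; on that scale Bnip3l to Sqstm1 lost its call and Gabarapl2 to Gabarapl1 gained one at -0.21, so the equal count covers different pairs. The log2 ratio of Sqstm1 to Optn was -0.11 on principal transcripts, and that of Bnip3l to Fkbp8 was -0.049 on protein-coding transcripts. Leaving out each library in turn gave a range of -0.261 to 0.025 for Gabarapl2 to Gabarapl1. The share of Gabarap in ATG8 was 50.6% from expected counts and 44.9% on principal transcripts, and 65.2% to 67.2% with 1 library left out. The number of genes whose principal transcript held under 50% was 3, but 1 (Gabarap) as a share of expected counts, and 3 to 4 with 1 library left out. Members at 1 TPM were 9 to 10 with 1 library left out. No gene was 2-fold apart between replicates under any of the 8 alternatives run. The cause of these shifts was not tested.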
